A study of Mus musculus with 12 samples.

Results

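The FGF pathway was followed through 35 genes chosen by name from the 57010 genes of a bulk RNA-Seq table of NE-4C cells. They comprise 12 secreted FGF ligands, 3 intracellular FGF homologous factors, 5 receptors, 2 FGF-binding proteins, 9 feedback inhibitors and 4 transcription factors that ERK signalling induces. NE-4C is a mouse line derived from embryonic brain vesicles and used as a model of neural progenitors. WT cells and Faf2 KO cells were collected untreated (WT NO and KO NO) or on day 3 after RA (WT RA and KO RA), an all-trans retinoic acid pulse of 24 h at 1 µM that starts neuronal differentiation. Each of the 4 groups had 3 libraries from separate passages. Faf2 encodes an adaptor of endoplasmic reticulum associated degradation, and the KO cells lack its exon 4 after CRISPR/Cas9 editing and the picking of colonies. Effects of a clone and of the genotype cannot be told apart here. No vehicle-treated or day-matched untreated cells are described, so effects of RA and of time in culture cannot be told apart either.

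FGF ligands are secreted, bind heparan sulphate on the cell surface and activate receptor tyrosine kinases, which signal through adaptors, RAS and the kinases RAF, MEK and ERK. ERK induces ETS transcription factors and Egr1, and with them the Sprouty, Spred and Dusp proteins that dampen the same cascade, so that these genes are widely read as a record of pathway output. FGF signalling holds early epiblast cells in a primed state, patterns the midbrain and forebrain, and meets opposing retinoic acid signals as neural progenitors leave the progenitor state.

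Of the 35 genes, 31 passed the filter on low counts that left 16502 genes for testing. Fgf2, Fgf7, Fgf10 and Fgf17 did not pass, with at most 15, 3, 12 and 9 counts in any library. Levels are given as CPM, counts scaled to a common library total with TMM factors. The deposited counts were already corrected for gene length by the authors' pipeline, so levels of different genes may be set side by side. Calls rest on edgeR's quasi-likelihood test, at an adjusted p (Benjamini-Hochberg) below 0.05. A group with at most 3 counts of a gene in each library was taken as at the floor. Levels in bulk RNA do not tell fewer cells of a type from less RNA per cell.

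Library totals ran from 17370069 to 30738717 counts. KO RA replicate 3 stood apart from every other library. Its TMM factor was 0.394 (0.872 to 1.28 elsewhere), mitochondrial genes took 23.5% of its counts (9.10% to 17.7% elsewhere) and its 100 most abundant genes took 62.5% (37.1% to 50.4% elsewhere). Many results are therefore given with it and without it, and others with all libraries only. Faf2 itself, on chromosome 13, measured 49.97, 38.8 and 35.95 CPM in WT NO, 35.1, 37.8 and 49.02 in WT RA, 21.01, 21.7 and 25.4 in KO NO, and 36.1, 34.3 and 18.7 in KO RA. It was lower in each KO NO library than in each WT NO library, with a log2 fold change of -0.87 (SE 0.27) and an adjusted p of 0.179, and of 0.0111 without KO RA replicate 3. The KO RA and WT RA libraries overlapped. For KO NO against WT NO, DESeq2 on the 12 libraries gave an adjusted p of 0.0142. The authors also report loss of FAF2 protein in the KO line by immunofluorescence and western blot, which RNA levels do not measure. Marker genes did not mark a single cell type. Summed over 6 neural progenitor genes the level was 172 to 338 CPM in the 12 libraries, while 6 pluripotency genes, led by Pou5f1, summed to 1354 to 3616 CPM, with Zfp42 among them at the floor in every group. Neuron markers summed to 70.2 to 110 CPM in untreated and 140 to 205 CPM in RA libraries, and 8 mesenchymal markers to 36.5 to 63.1 and 94.9 to 293 CPM.

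The promoters of 4 members called in KO RA against KO NO, with or without KO RA replicate 3, are shown for comparison. They include genes that moved in both directions, and Egr1, also called there, is not shown. Each window is the 250 bases before the start of the canonical transcript in GRCm39, with CG pairs in capitals. All 4 are printed 5′ to 3′ on the gene's strand, which is the plus strand. The windows of Fgf9 and Etv1 lie within the annotated bounds of the gene. Fgf9 (chr14:58309423-58309672), Fgf5 (chr5:98401530-98401779), Spry1 (chr3:37693647-37693896) and Etv1 (chr12:38829831-38830080) read as follows.
Fgf9: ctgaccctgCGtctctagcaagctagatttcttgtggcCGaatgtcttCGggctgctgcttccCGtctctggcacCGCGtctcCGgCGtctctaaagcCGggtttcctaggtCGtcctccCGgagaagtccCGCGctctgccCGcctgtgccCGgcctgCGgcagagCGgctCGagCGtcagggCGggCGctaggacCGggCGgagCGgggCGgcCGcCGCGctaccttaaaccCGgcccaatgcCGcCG
Fgf5: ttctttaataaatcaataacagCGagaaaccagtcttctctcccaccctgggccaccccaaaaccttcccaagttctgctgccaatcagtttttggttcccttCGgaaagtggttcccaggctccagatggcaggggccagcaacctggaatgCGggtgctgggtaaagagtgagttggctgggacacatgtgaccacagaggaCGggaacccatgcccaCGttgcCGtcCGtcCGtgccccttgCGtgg
Spry1: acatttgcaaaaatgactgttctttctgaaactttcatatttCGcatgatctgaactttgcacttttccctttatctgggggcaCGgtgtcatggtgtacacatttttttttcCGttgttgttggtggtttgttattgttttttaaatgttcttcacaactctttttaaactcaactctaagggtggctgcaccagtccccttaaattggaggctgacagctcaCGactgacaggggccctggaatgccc
Etv1: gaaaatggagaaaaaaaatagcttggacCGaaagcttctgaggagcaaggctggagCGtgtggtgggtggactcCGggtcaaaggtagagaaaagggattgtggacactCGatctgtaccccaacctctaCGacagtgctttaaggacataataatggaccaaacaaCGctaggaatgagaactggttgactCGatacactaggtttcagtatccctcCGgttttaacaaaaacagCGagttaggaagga
The Fgf9 window holds 31 CG pairs, more than 96.7% of the 21664 promoters of the same length searched, whose median is 8. Fgf5 and Etv1 hold 9 each and Spry1 holds 4. The ETS motif CCGGAAGT was searched on both strands and stands in none of the 4 windows. It was found in 2.64% of all promoters and in 1 of the 35 members, Fgfrl1. The nuclear receptor half-site AGGTCA, searched in the same way, stands in 13.1% of promoters and in 4 of the 35 members, Fgf7, Fgf12, Fgfr4 and Spry2. Fgf3, Fgf4 and Fgf15 are neighbours on chromosome 7 within 63092 bp, and they differed from one another in level as given below.

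Of the secreted ligands, Fgf8, Fgf5 and Fgf15 made up most of the ligand RNA in all groups, Fgf9 rose after RA in KO cells, and Fgf4 and Fgf5 lay lower there. Fgf9 was the ligand called in KO RA against KO NO in the full set of libraries, where 3.89% of all genes tested were called higher and 1.59% lower. Fgf9, a ligand of the subfamily that signals to mesenchyme and neural tissue, measured 0.106, 0.0739 and 0.0305 CPM in WT NO, 0.432, 0.6299 and 0.477 in WT RA, 0.468, 0.0592 and 0.0279 in KO NO, and 2.89, 2.72 and 5.15 in KO RA. Every KO RA library lay above every other library. The log2 fold change of KO RA against KO NO was 4.24 (SE 0.86, adjusted p = 0.0193), and 3.88 without KO RA replicate 3 (adjusted p = 0.0163). It was 6.25 without KO NO replicate 1 (adjusted p = 0.00658), which holds 16 of the 19 counts of Fgf9 in KO NO. The call was lost without KO NO replicate 2 (adjusted p = 0.0911) and without KO NO replicate 3 (adjusted p = 0.0685), the libraries in which Fgf9 was lowest. Set against WT RA, its log2 fold change was 2.79 (SE 0.81), which did not pass (adjusted p = 0.122, edgeR). DESeq2 on the 12 libraries gave an adjusted p of 0.0113. The difference passed in 3 of 19 alternative fits, and in 0 of those with 1 library left out. In WT NO Fgf9 was at the floor in each library, and the mean WT RA level was at least 5.00-fold higher than a floor of 3 counts per library. The WT RA and WT NO libraries did not overlap, and the adjusted p was 0.228. The difference between the RA responses of KO and WT was 1.43 on the log2 scale (SE 1.28, adjusted p = 0.749).

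Fgf4, a ligand of the epiblast that Pou5f1 and Sox2 are known to drive, measured 9.04, 6.68 and 1.56 CPM in WT NO, 4.23, 2.18 and 3.198 in WT RA, 5.36, 3.29 and 4.38 in KO NO, and 0.0902, 1.12 and 0.396 in KO RA. All KO RA libraries were below all KO NO and all WT RA libraries. The log2 fold change of KO RA against KO NO was -2.94 (SE 0.78, adjusted p = 0.0528), and -2.78 without KO RA replicate 3 (adjusted p = 0.0515). It was -4.31 without KO RA replicate 2, the highest KO RA library, and then passed (adjusted p = 0.0267). Without WT NO replicate 3, which enters the shared estimate of spread, the adjusted p was 0.0301. Against WT RA the value was -2.50 (SE 0.78, adjusted p = 0.148), and -3.87 without KO RA replicate 2 (adjusted p = 0.0673). In the same libraries Pou5f1 measured 799 to 1166 CPM in KO RA and 1348 to 1608 CPM in KO NO, and its part in the Fgf4 result was not tested.

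Fgf5, a marker of the primed epiblast, measured 27.4, 36.5 and 21.1 CPM in WT NO, 22.9, 10.5 and 13.5 in WT RA, 22.6, 21.5 and 19.1 in KO NO, and 9.29, 8.24 and 13.3 in KO RA. Each KO RA library was below each KO NO library, while the WT groups overlapped. Without TMM scaling, each WT RA library was also below each WT NO library. KO RA against KO NO gave -1.04 (SE 0.32, adjusted p = 0.0849), and Fgf5 fell by 1.28 on the log2 scale without KO RA replicate 3 (adjusted p = 0.0213). WT RA against WT NO gave -0.86 (SE 0.32, adjusted p = 0.287), and the RA responses of the genotypes differed by -0.18 (SE 0.45, adjusted p = 0.914).

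Fgf8, the organiser signal of the midbrain-hindbrain boundary, measured 51.9, 59.5 and 29.1 CPM in WT NO, 55.00, 29.8 and 37.6 in WT RA, 45.7, 80.3 and 55.1 in KO NO, and 33.9, 35.8 and 16.7 in KO RA. It was the most abundant ligand in 11 of 12 libraries. KO RA libraries were below KO NO libraries (log2 fold change -1.06, SE 0.38, adjusted p = 0.126), and WT RA overlapped WT NO (-0.20, SE 0.38, adjusted p = 0.903). Fgf15, which is expressed in the embryonic brain, measured 25.5, 24.01 and 10.2 CPM in WT NO, 12.5, 5.62 and 11.6 in WT RA, 20.5, 21.01 and 18.7 in KO NO, and 26.02, 38.7 and 5.45 in KO RA. Its level in KO RA rested on the library, from 38.7 CPM in replicate 2 to 5.45 CPM in replicate 3. KO RA against WT RA gave 1.25 (SE 0.58, adjusted p = 0.294) with all libraries. It rose by 1.70 when KO RA replicate 3 was left out (adjusted p = 0.0237).

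Fgf1 measured 0, 0.148 and 0 CPM in WT NO, 0.4803, 0.678 and 0.525 in WT RA, 0.234, 0 and 0.0279 in KO NO, and 1.398, 1.91 and 0.495 in KO RA. It lay higher in every RA library than in every untreated library of the same genotype, with log2 fold changes of 3.45 in WT (SE 1.34, adjusted p = 0.315) and 3.81 in KO (SE 1.27, adjusted p = 0.106). These rest on 0 to 8 counts in untreated libraries, and the fitted sizes depend on the prior count. They were 6.89 in WT without WT NO replicate 2 and 6.07 in KO without KO NO replicate 1, which leave 0 and 1 counts in the untreated group. Fgf18 measured 0.985, 0.849 and 0.366 CPM in WT NO, 1.25, 2.42 and 1.002 in WT RA, 0.468, 0.118 and 0.558 in KO NO, and 1.71, 0.953 and 1.19 in KO RA. It was also higher in each RA library of both genotypes, by 1.08 in WT (SE 0.62, adjusted p = 0.53) and 1.74 in KO (SE 0.64, adjusted p = 0.134). Without TMM scaling, Fgf18 overlapped in both genotypes and Fgf1 overlapped in KO.

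Fgf17, a relative of Fgf8, was detected above the floor only in WT RA among the groups sequenced, at 0.384, 0.436 and 0.239 CPM, and it had 0 counts in all 6 KO libraries. Its mean in WT RA was at least 3.44-fold higher than the floor in WT NO and at least 1.98-fold higher than the floor in KO RA, on 5 to 9 counts per library and with no test. Fgf2 was above the floor only in WT NO, at 0.528, 0.111 and 0.152 CPM, on 15, 3 and 5 counts. Its mean there was at least 3.04-fold higher than the floor in KO NO, with no test. WT NO replicate 1 held most of these counts, and replicate 2 was itself at 3 counts. Fgf7 was at the floor in all groups. Fgf10 stayed between 0 and 0.422 CPM and Fgf3 between 0.0305 and 0.761 CPM, with overlapping groups in every comparison of Fgf3.

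**Figure D1:**
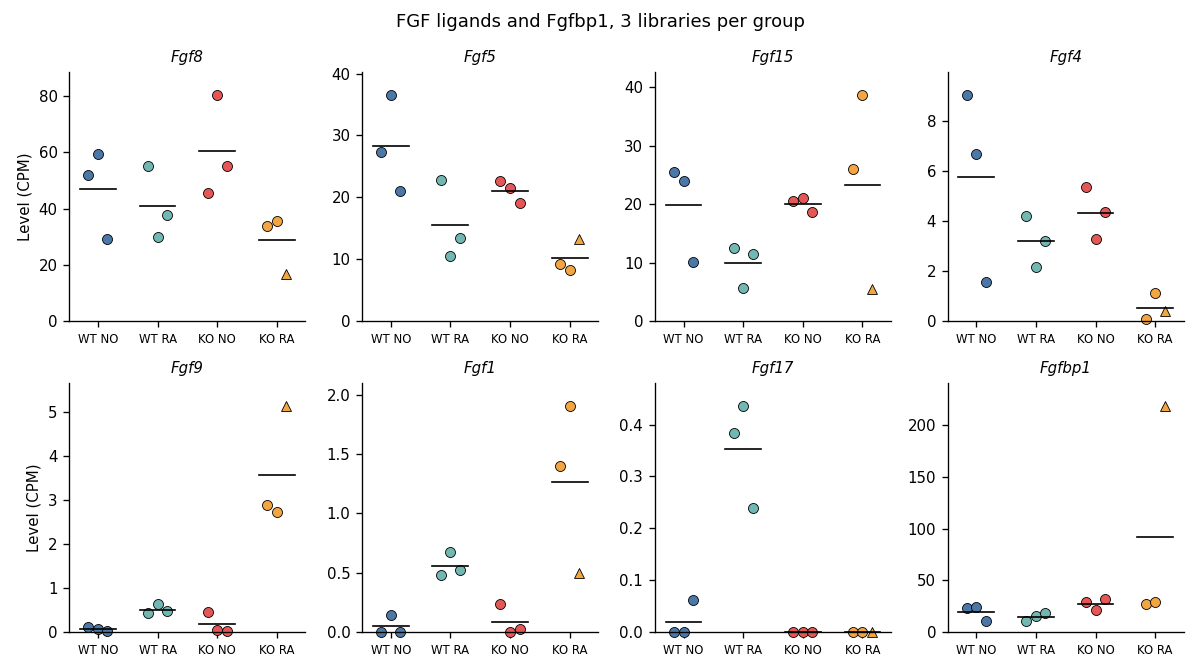
Level in CPM (vertical axes, linear from 0, 1 scale per panel) of 7 FGF ligands and Fgfbp1 in each library of WT NO, WT RA, KO NO and KO RA. Points are libraries, the triangle is KO RA replicate 3 and bars are group means. Fgf9 reached 2.72 to 5.15 CPM in KO RA, and the 219 CPM of Fgfbp1 came from KO RA replicate 3.

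Shares within a library do not depend on how libraries are scaled to each other. Fgf8 supplied 44.7% to 46.4% of the summed ligand values in WT NO and 55.0% to 56.5% in WT RA, so the share was higher after RA by 10.1 percentage points. In KO cells it supplied 47.4% to 63.2% before and 38.7% to 44.8% after RA, lower by 14.5 points. No WT RA library overlapped WT NO and no KO RA library overlapped KO NO. The exact permutation test (2-sided) gave p = 0.1 for each of these, which is the smallest p that 3 against 3 libraries allow. Groups without overlap always give this p, so it adds nothing to the lack of overlap for which the share was picked. Before RA the Fgf8 share was already 9.81 points higher in KO than in WT, also without overlap. KO RA replicate 3 held the lowest share of the 12 libraries, and the other 2 KO RA libraries were also below all KO NO libraries. Fgf15 took 34.4% and 43.1% of the ligand values in KO RA replicates 1 and 2 and 12.5% in replicate 3, against 10.6% to 22.0% in the other groups. Fgf9 took 3.04% to 11.9% in KO RA and at most 1.19% in the other groups.

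Among the receptors, Fgfr1 was the main one in all libraries and none of the 5 was called by edgeR in any comparison with or without KO RA replicate 3. The order Fgfr1, Fgfr2, Fgfr3, Fgfr4 held in 12 of 12 libraries, and neighbours in it did not overlap in WT NO. Fgfr1, the principal FGF receptor of the neural epithelium, measured 55.1, 49.4 and 39.98 CPM in WT NO, 60.6, 66.7 and 54.2 in WT RA, 52.04, 48.7 and 56.9 in KO NO, and 69.6, 71.6 and 21.4 in KO RA. It supplied 68.8% to 83.2% of the 4 kinase receptors. Fgfr2 measured 11.6, 12.1 and 5.85 CPM in WT NO, 11.2, 15.8 and 15.8 in WT RA, 18.9, 10.3 and 17.96 in KO NO, and 25.1, 30.1 and 8.71 in KO RA. Its share was 12.2% to 18.6% in WT NO, 15.3% to 22.1% in WT RA, 17.2% to 26.0% in KO NO and 25.8% to 29.0% in KO RA. The KO RA share was higher than the WT RA share by 9.01 points, with no overlap (exact permutation p = 0.1, 2-sided, the value that no overlap always gives). KO RA replicate 3, whose receptor levels were the lowest in its group, had a Fgfr2 share of 28.2%.

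Fgfr3 measured 4.15, 3.21 and 1.89 CPM in WT NO, 0.865, 2.04 and 1.34 in WT RA, 1.64, 0.917 and 1.31 in KO NO, and 2.39, 1.97 and 0.792 in KO RA. It was highest in WT NO replicates 1 and 2, and KO NO did not overlap WT NO (log2 fold change -1.25, SE 0.50, adjusted p = 0.32, edgeR). Its share of the receptors was 3.95% to 5.83% in WT NO and 1.16% to 2.48% in the other groups. Fgfr4 measured 0.387, 0.369 and 0.305 CPM in WT NO, 0.624, 0.291 and 0.382 in WT RA, 0.176, 0.0888 and 0.0837 in KO NO, and 0.226, 0.306 and 0.09903 in KO RA. It was lower in each KO NO library than in each WT NO library (-1.57, SE 0.67, adjusted p = 0.363), on counts of at most 13 in any library. Fgfr4 lies on chromosome 13, as Faf2 does, where the median of 648 genes in KO NO against WT NO was -0.36, and the part of this in the Fgfr4 value was not tested. Chromosome 17, which holds no member, had a lower median still, -0.47 over 794 genes. Fgfrl1, a receptor without a kinase domain, ranged from 12.8 to 25.2 CPM with overlapping groups throughout.

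**Figure D2:**
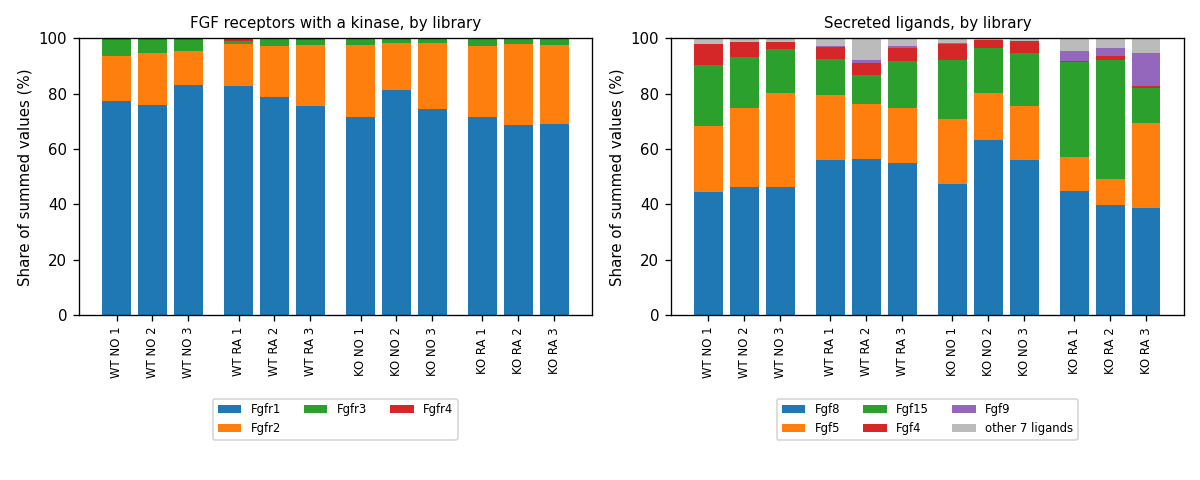
Share (%) of each receptor in the sum of Fgfr1 to Fgfr4 (left) and of each ligand in the sum of the 12 secreted ligands (right), by library, from the length-corrected values. Fgfr1 filled 68.8% to 83.2% of each receptor bar, and the Fgf8 part was 55.0% to 56.5% in WT RA against 38.7% to 44.8% in KO RA.

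The FGF-binding proteins release ligands from the matrix. Fgfbp1 measured 23.5, 24.7 and 10.3 CPM in WT NO, 11.1, 15.6 and 18.1 in WT RA, 29.2, 21.4 and 32.3 in KO NO, and 27.3, 29.1 and 219 in KO RA. The 219 CPM of KO RA replicate 3 set its difference from WT RA, which was 2.62 on the log2 scale (SE 0.73, adjusted p = 0.11) and 0.91 without that library (adjusted p = 0.111). Fgfbp3 ranged from 1.25 to 6.98 CPM, and its KO RA libraries lay above its KO NO libraries (0.94, SE 0.42, adjusted p = 0.189). Without TMM scaling they overlapped.

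The 3 intracellular homologous factors, which bind sodium channels and do not activate receptors in the usual way, had no called member. Fgf11 measured 3.03, 2.51 and 3.63 CPM in WT NO, 6.63, 3.198 and 5.35 in WT RA, 2.52, 2.96 and 2.51 in KO NO, and 2.26, 2.86 and 0.297 in KO RA. KO RA was below WT RA without overlap (-1.44, SE 0.56, adjusted p = 0.23), and with KO RA replicate 3 left out the value was -0.99. These 2 groups overlapped without TMM scaling. Fgf12 measured 0.387, 1.92 and 0.427 CPM in WT NO, 0.672, 0.291 and 0.334 in WT RA, 0.322, 0.0296 and 0.195 in KO NO, and 0.947, 0.272 and 2.08 in KO RA. KO NO lay below WT NO (-2.29, SE 0.98, adjusted p = 0.372), with 1 to 11 counts in the KO NO libraries. WT NO replicate 2 was far above its mates, and without it the value was -1.13, while without KO NO replicate 1 it was -2.95. Fgf13 stayed between 8.71 and 34.2 CPM, the lowest in KO RA replicate 3.

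The 4 ERK-induced transcription factors did not move together. Egr1 differed in opposite directions after RA in the genotypes, Etv1 lay lower in untreated KO than in untreated WT cells, and Etv4 and Etv5 had no call. Egr1, an immediate early gene that responds within minutes to ERK and to many other stimuli, measured 23.7, 26.8 and 15.3 CPM in WT NO, 9.85, 5.96 and 10.02 in WT RA, 7.81, 8.29 and 5.69 in KO NO, and 52.5, 26.1 and 13.2 in KO RA. KO NO and WT RA libraries lay below all WT NO libraries, and KO RA libraries lay above all KO NO and WT RA libraries. Egr1 rose in KO RA against KO NO, by 2.08 on the log2 scale (SE 0.45, adjusted p = 0.0244), by 2.42 without KO RA replicate 3 (adjusted p = 0.00157) and by 1.47 without KO RA replicate 1, the highest library (adjusted p = 0.0459). The call was lost when KO NO replicate 1, 2 or 3 was left out (adjusted p from 0.0924 to 0.103). In WT the RA difference was -1.35 (SE 0.44, adjusted p = 0.235), and -1.34 without KO RA replicate 3 (adjusted p = 0.0238). The difference between both responses was 3.43 (SE 0.63, unadjusted p = 0.000192, adjusted p = 0.144). Leaving out KO RA replicate 3, it was 3.77 and passed (adjusted p = 0.0102, edgeR), where 0.802% of all genes were called higher and 0.537% lower. With all libraries edgeR called 0% of genes higher and 0% lower for this difference, and 3 members were higher and 0 lower by an unadjusted p below 0.05, beside 5.53% and 3.09% of genes. Without KO RA replicate 1 the Egr1 difference was 2.82 (adjusted p = 0.175).

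Between genotypes, Egr1 gave -1.60 in KO NO against WT NO (SE 0.44, adjusted p = 0.136) and 1.83 in KO RA against WT RA (SE 0.45, adjusted p = 0.0742). Without KO RA replicate 3 these were -1.58 (adjusted p = 0.0133) and 2.18 (adjusted p = 0.00534). Without KO RA replicate 1, KO RA against WT RA gave 1.22 (adjusted p = 0.113). The level of Egr1 in KO RA replicate 3 depends on the scaling. It was 13.2 CPM with its TMM factor of 0.394 and 5.18 CPM without TMM factors, and on that scale it overlapped KO NO and WT RA while KO RA replicates 1 and 2 did not.

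Etv1 measured 22.3, 26.1 and 21.6 CPM in WT NO, 23.2, 14.1 and 17.3 in WT RA, 9.42, 12.7 and 12.6 in KO NO, and 23.1, 18.1 and 7.53 in KO RA. It was lower in each KO NO library than in each WT NO library (-1.01, SE 0.35, adjusted p = 0.253), a fall by 1.00 that passed without KO RA replicate 3 (adjusted p = 0.0144). In KO cells it rose after RA by 0.82 without that library (adjusted p = 0.0296), against 0.50 with it (SE 0.35, adjusted p = 0.396). Etv4 measured 140, 152 and 48.1 CPM in WT NO, 128, 87.3 and 95.6 in WT RA, 75.8, 73.7 and 73.7 in KO NO, and 53.4, 31.3 and 62.98 in KO RA. All KO RA libraries lay below all WT RA and KO NO libraries, and against WT RA the value was -1.08 (SE 0.40, adjusted p = 0.214). Etv5 had the highest mean of the members over the 12 libraries, with 93.9 to 152 CPM in 11 libraries and 20.0 CPM in KO RA replicate 3.

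**Figure D3:**
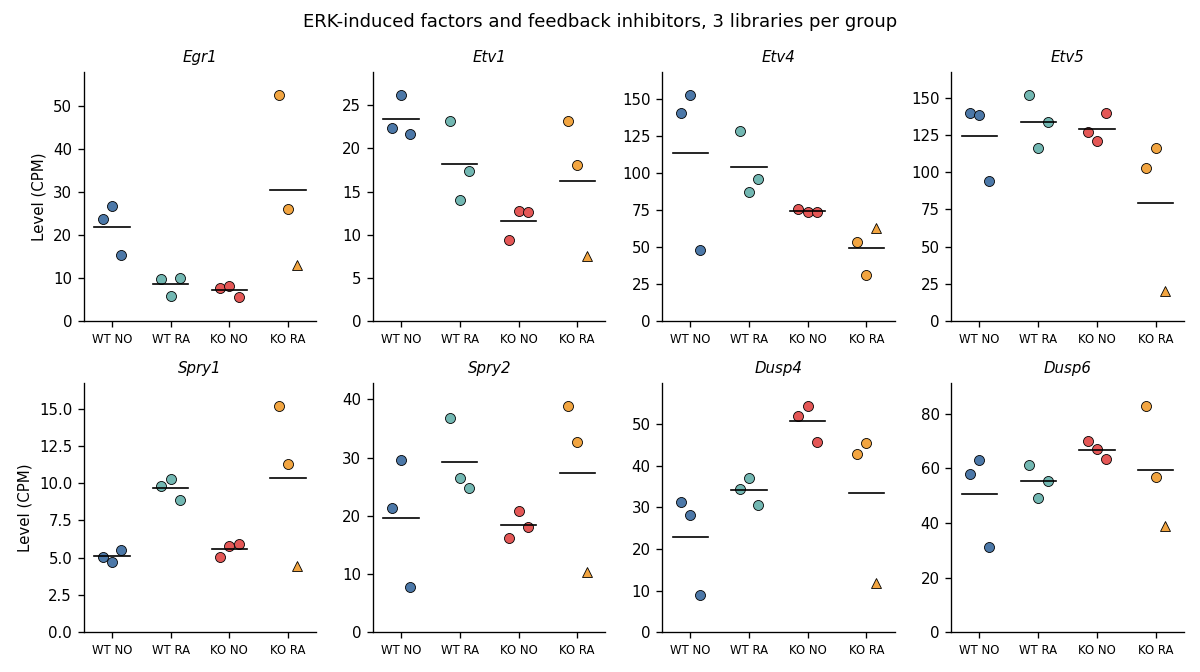
Level in CPM (vertical axes, linear from 0, 1 scale per panel) of 4 ERK-induced transcription factors and 4 feedback inhibitors in each library, with the triangle for KO RA replicate 3 and bars for group means. Egr1 was 5.96 to 10.0 CPM in WT RA and 13.2 to 52.5 CPM in KO RA, while Dusp6 overlapped between WT RA and KO RA.

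No feedback inhibitor was called in any comparison with all libraries. Spry1, of the Sprouty proteins that act between receptor and RAF, measured 5.03, 4.69 and 5.52 CPM in WT NO, 9.799, 10.3 and 8.88 in WT RA, 5.06, 5.801 and 5.89 in KO NO, and 15.2, 11.3 and 4.46 in KO RA. WT RA lay above WT NO without overlap (0.93, SE 0.35, adjusted p = 0.304), and in KO the replicate 3 library of KO RA fell below all KO NO libraries while replicates 1 and 2 lay above them. Spry1 rose after RA in both genotypes when that library was left out, by 0.93 in WT (adjusted p = 0.00872) and 1.23 in KO (adjusted p = 0.00184). The responses differed by 0.31 (adjusted p = 0.535). Spred1, an inhibitor of RAS activation, measured 23.8, 21.1 and 18.6 CPM in WT NO, 17.1, 17.3 and 17.7 in WT RA, 21.7, 22.4 and 21.95 in KO NO, and 24.1, 26.3 and 11.98 in KO RA. It was called higher in KO RA than in WT RA without KO RA replicate 3, by 0.53 (adjusted p = 0.0272), and was 0.26 with it (SE 0.26, adjusted p = 0.632).

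Dusp4, a nuclear phosphatase of ERK, measured 31.3, 28.3 and 8.995 CPM in WT NO, 34.4, 37.1 and 30.6 in WT RA, 51.9, 54.4 and 45.6 in KO NO, and 42.7, 45.6 and 11.9 in KO RA. KO NO lay above WT NO without overlap (1.15, SE 0.50, adjusted p = 0.381), and the value was 0.77 without WT NO replicate 3, the lowest library. Dusp6, the cytoplasmic ERK phosphatase, measured 57.7, 63.2 and 31.3 CPM in WT NO, 61.3, 49.1 and 55.4 in WT RA, 69.95, 67.1 and 63.5 in KO NO, and 82.9, 56.7 and 38.9 in KO RA. KO NO again lay above WT NO (0.40, SE 0.31, adjusted p = 0.725). Spry2 measured 21.3, 29.7 and 7.75 CPM in WT NO, 36.7, 26.4 and 24.7 in WT RA, 16.2, 20.9 and 18.1 in KO NO, and 38.9, 32.6 and 10.4 in KO RA. Spry4, Spred2, Spred3 and Il17rd, a membrane inhibitor of FGF receptors, ranged from 4.36 to 24.7, 13.0 to 60.5, 4.36 to 8.93 and 9.51 to 33.6 CPM, and their groups overlapped in each comparison. For all 4 the lowest value of the 12 was in KO RA replicate 3.

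The members are counted here against the background of all genes, first by the adjusted p. In KO NO against WT NO, 0 of 31 members were called, beside 0.788% of genes higher and 0.351% lower. For KO RA against WT RA the count was 0, beside 0.885% and 0.358%. In WT RA against WT NO it was 0, beside 0.321% and 0.0848%. For KO RA against KO NO the count was 2 higher and 0 lower, beside 3.89% and 1.59%. By an unadjusted p below 0.05, 1 member was higher and 5 were lower in KO NO against WT NO, beside 5.81% and 6.37% of genes. The same counts were 3 and 4 in KO RA against WT RA (10.9% and 6.67% of genes), 4 and 3 in WT RA against WT NO (6.76% and 5.79%), and 8 and 3 in KO RA against KO NO (15.8% and 9.42%). DESeq2 on the 12 libraries called 1, 3, 1 and 6 members in these comparisons, in the order given, beside 5.49%, 6.86%, 4.53% and 14.1% of the genes it tested. Nothing is read from these small counts about the members as a group.

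Leaving out KO RA replicate 3 widened the background. It was 4.43% higher and 4.35% lower in KO NO against WT NO, with Egr1 and Etv1 called lower. For KO RA against WT RA it was 4.42% and 5.44%, with Egr1, Fgf15 and Spred1 called higher. In WT RA against WT NO it was 5.65% and 5.13%, with Spry1 higher and Egr1 lower. In KO RA against KO NO it was 8.48% and 7.54%, with Egr1, Etv1, Fgf9 and Spry1 higher and Fgf5 lower. The median log2 fold change of the 31 members was then 0.30 in KO RA against KO NO, beside -0.02 over all genes. With all libraries the members' median was 0.11, the value of Fgfrl1, beside 0.11 over all genes.

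Groups that do not overlap were counted on the CPM scale. In KO NO against WT NO, 2 members were above and 5 below, beside 15.5% and 15.2% of all genes. The counts in KO RA against WT RA were 3 and 5, beside 9.97% and 10.9%. In WT RA against WT NO they were 4 and 2, beside 15.1% and 14.0%. Those in KO RA against KO NO were 5 and 6, beside 13.2% and 17.0%. In all, 32 of 124 member and comparison pairs were apart, and 29 without TMM factors, with 19 pairs that differed between the scalings. Leaving out TMM moves a difference in mean log2 CPM by -0.44 in KO RA against KO NO. That shift is -0.25 in WT RA against WT NO and -0.12 in KO RA against WT RA. The edgeR fold changes were not refitted without TMM, and their shifts can differ by gene.

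**Figure D4:**
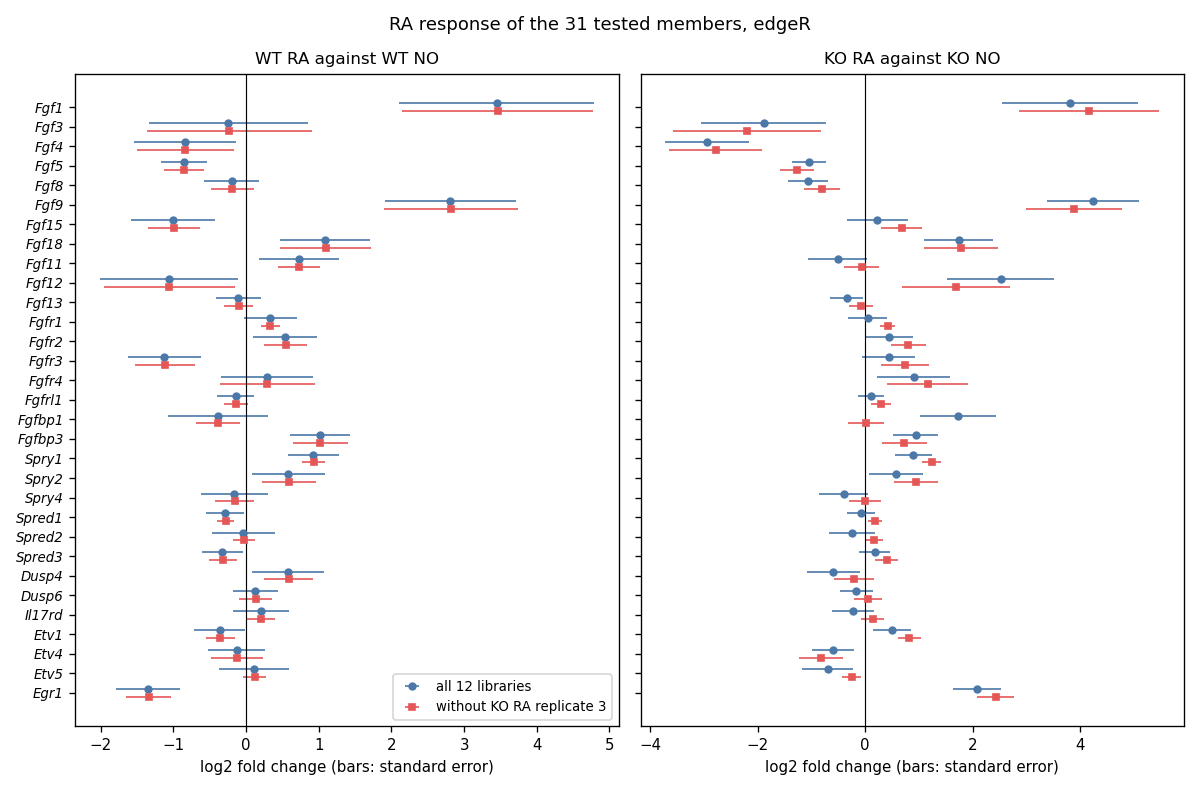
Log2 fold change after RA (horizontal axes, bars are standard errors) of the 31 tested members in WT (left) and KO (right), with all 12 libraries (circles) and without KO RA replicate 3 (squares). Egr1 stood at -1.35 in WT and 2.08 in KO, while Spry1 stood at 0.93 and 0.89.

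Libraries of the same group differed in the members as a body. Over the 26 members that averaged at least 1 CPM, WT NO replicate 3 was below both other WT NO libraries in 22, or 84.6%, against 43.6% of all genes. In KO RA replicate 3 it was 20 of 26, or 76.9%, against 54.5% of all genes. In WT NO replicate 3 the feedback genes Spry2 and Dusp4 were at 7.75 and 8.995 CPM, and Etv4 was at 48.1 CPM, while Il17rd was the highest of its group. In this library Pou5f1 was at 1148 CPM, against 2126 and 2276 CPM in its mates. Its part in these differences was not tested.

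**Figure D5:**
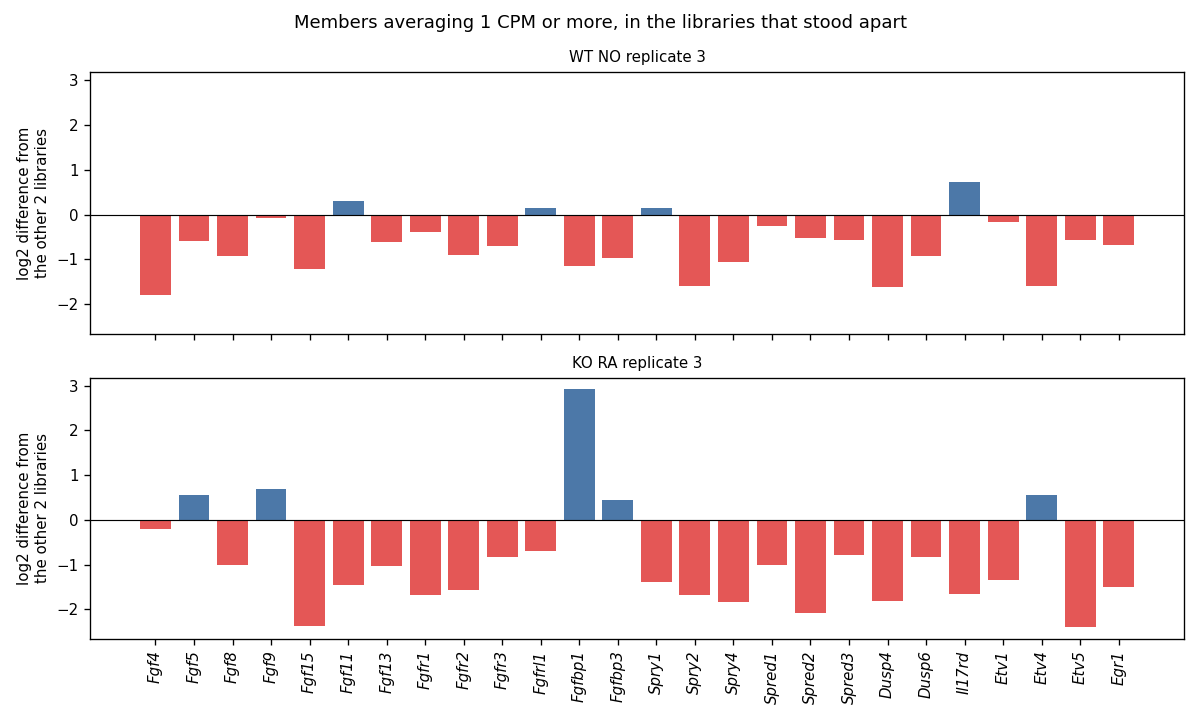
Log2 difference of each of 26 members, averaging 1 CPM or more, from the mean of the other 2 libraries of its group, in WT NO replicate 3 (top) and KO RA replicate 3 (bottom). Bars below 0 are lower than the mates, and Fgfbp1, at 219 CPM in KO RA replicate 3, is the highest bar.

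Outside the 35 members, the genes between receptor and ERK had no call, and co-receptors had several. Of 26 adaptor and RAS-ERK cascade genes, all tested, 0 were called in any of the 5 comparisons with all libraries, with at most 4 at an unadjusted p under 0.05 in a comparison. When KO RA replicate 3 was left out, 3 to 4 of them were called in each of the comparisons between groups, in which 4.42% to 8.48% of all genes were called higher and 4.35% to 7.54% lower. Of 9 other FGF family genes in the table, 3 were tested and 0 called.

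A further list held 21 genes for heparan sulphate co-receptors, their enzymes and the FLRT membrane proteins that bind FGF receptors. Of these, 7 rose and 0 fell in KO RA against KO NO, beside 3.89% and 1.59% of all genes. Their median was 0.38, beside 0.11 over all genes tested. The list was written by hand with earlier results of these data known, so these counts are not a measure of enrichment. Flrt2 measured 1.06, 0.739 and 0.457 CPM in WT NO, 3.84, 4.55 and 2.72 in WT RA, 1.43, 0.858 and 1.06 in KO NO, and 15.2, 9.804 and 12.9 in KO RA. It rose by 3.49 (SE 0.38, adjusted p = 0.000876), by 2.30 in WT RA against WT NO (SE 0.37, adjusted p = 0.0347) and by 1.76 in KO RA against WT RA (SE 0.35, adjusted p = 0.0389). Sdc3, a syndecan of neural cells, measured 4.26, 3.69 and 4.45 CPM in WT NO, 6.96, 9.11 and 6.73 in WT RA, 3.34, 2.52 and 3.77 in KO NO, and 19.8, 17.1 and 15.7 in KO RA. It rose by 2.45 in KO RA against KO NO (SE 0.24, adjusted p = 0.000483) and by 1.21 against WT RA (SE 0.23, adjusted p = 0.0365). The other 5 were Sdc2 (1.94), Gpc4 (1.74), Flrt3 (1.64), Gpc6 (1.63) and Sulf2, an enzyme that trims sulphate from heparan sulphate (1.48). The fold changes of this list are given with all libraries only. In the same libraries the mesenchymal markers summed to 160 to 293 CPM in KO RA and 36.5 to 42.4 CPM in KO NO, with 7 of 8 called higher, and the endothelial markers to 6.44 to 14.6 and 1.07 to 2.01 CPM. Their part in these changes was not tested.

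Of 12 other ERK response genes 11 were tested. This list was also written with earlier results known, so its counts and median are not a measure of enrichment. Dusp5, a nuclear ERK phosphatase, measured 8.06, 8.42 and 7.23 CPM in WT NO, 7.397, 9.25 and 5.92 in WT RA, 10.8, 5.298 and 7.09 in KO NO, and 18.8, 18.5 and 31.4 in KO RA. It rose in KO RA against KO NO by 1.56 (SE 0.32, adjusted p = 0.019) and against WT RA by 1.60 (SE 0.32, adjusted p = 0.0389). KO RA replicate 3 was its highest library, and the fold changes of this list are given with all libraries only. Phlda1 measured 9.85, 14.7 and 4.54 CPM in WT NO, 12.8, 13.2 and 7.97 in WT RA, 7.84, 6.45 and 7.28 in KO NO, and 29.3, 23.7 and 29.5 in KO RA. It rose by 1.93 in KO RA against KO NO (SE 0.37, adjusted p = 0.0151). Dusp9, another ERK phosphatase, measured 23.96, 20.5 and 45.1 CPM in WT NO, 10.8, 14.3 and 11.8 in WT RA, 32.4, 18.8 and 14.95 in KO NO, and 8.84, 5.79 and 8.62 in KO RA. It fell by 1.51 in the same comparison (SE 0.37, adjusted p = 0.0397). The other 8 genes of this list were not called there. Over the 11 genes the median in WT RA against WT NO was -0.84, beside -0.01 over all genes, with 0 called. By an unadjusted p below 0.05, 4 were lower and 0 higher, beside 5.79% and 6.76% of all genes.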

How the data were processed

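RNA was sequenced from 12 cultures of NE-4C cells, 3 in each of 4 groups taken from the deposited sample records. The authors ran nf-core/rnaseq with STAR and Salmon on GRCm39 (Ensembl annotation) and deposited estimated counts per gene, scaled from TPM and so corrected for gene length. In 3851 genes with a value above 0 in only 1 of the 12 libraries, values fell with exonic length (Spearman correlation -0.685 across genes). Other genes were not checked in this way. Totals ran from 17370069 to 30738717. Totals and counts are scaled values, so a floor of 3 counts is not 3 fragments. Its meaning in fragments differs with gene length, and the fold bounds set against the floor share this limit.

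Estimated counts were rounded to whole numbers. edgeR 4.0.16 in R 4.3.3 fitted 1 coefficient per group to all 12 libraries (filterByExpr, TMM factors, robust quasi-likelihood F test, 8 residual degrees of freedom), with Benjamini-Hochberg adjustment over 16502 genes. The fit was tested on simulated counts with a smaller dispersion than these data and no library standing apart. That test does not cover the spread of these libraries. The standard error was the log2 fold change over the square root of F. Replicates were separate passages of 1 line per genotype, so p-values measure that spread. Values in every library are given for members called with all libraries or without KO RA replicate 3, and for members whose groups do not overlap with a log2 fold change of 1 or more in size; Dusp6, Fgfr1, Fgfr2, Fgf17, Fgf2 and Spry2 were added after their values were seen. Genes of other lists are named where called. The members and lists were chosen with earlier results of these data known. Alternatives were DESeq2 1.42.0, limma 3.58.1 (voom with quality weights), DESeq2's size factors, no filter, a replicate block, only the groups compared, and each library left out. Promoters were read from GRCm39 with GENCODE's annotation in Python 3.11.15, and figures drawn with matplotlib 3.10.9.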

Additional observations from a re-analysis of the deposited data

Results flagged for a closer look

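Egr1 was picked out because its RA response had opposite directions in the genotypes, with no overlap of libraries within either. The log2 difference between the responses was 3.43 (SE 0.63, edgeR adjusted p = 0.144), and 3.77 without KO RA replicate 3 (adjusted p = 0.0102) and 2.82 without KO RA replicate 1 (adjusted p = 0.175). DESeq2 on the 12 libraries gave an adjusted p of 2.36e-05, and over all alternatives the adjusted p ran from 2.36e-05 to 0.459. Mitochondrial genes took 12.4% to 23.5% of counts in KO RA and 9.10% to 11.9% in KO NO, and their part in the Egr1 result was not tested.

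The Fgf8 share of the secreted ligands was picked out for the same reason. It was 10.1 percentage points higher after RA in WT and lower in KO, with a difference of -14.5 points, and the libraries did not overlap within either genotype. The difference between the responses of the genotypes was not tested. A share also moves with the other ligands, and Fgf15 held 12.5% to 43.1% of the ligand values in KO RA.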

How the results depend on the processing

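The 30 log2 fold changes of the named members and Faf2 were recomputed under up to 19 alternatives each, which gave 566 values. Among these 0 reversed, 64 newly passed the threshold and 7 no longer passed. The other 495 kept their side of it or had no adjusted p. The members' values had been picked for a call or for groups that did not overlap. The lack of reversals was in part set by that choice. The number of members called moved with the tool. In KO NO against WT NO it was 0 with edgeR on 12 libraries, 1 with DESeq2 on 12 libraries, 8 with limma-voom, 2 with edgeR and 3 with DESeq2 on the groups compared. In KO RA against WT RA it was 0, then 3 with DESeq2, 11 with limma-voom and 2 with DESeq2 on the groups compared. In WT RA against WT NO it was 0, then 1 with DESeq2, 9 with limma-voom, and 2 with either tool on the groups compared. In KO RA against KO NO it was 2, then 6 with DESeq2, 12 with limma-voom, and 0 with edgeR and 4 with DESeq2 on the groups compared. For the difference of the RA responses it was 0, then 1 with DESeq2 and 5 with limma-voom. The cause was not tested.

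When 1 library at a time was left out, the calls ranged from 0 to 2, 0 to 3, 0 to 2, 0 to 5 and 0 to 1 in the same order. In the first 3 comparisons and the last, the counts above 0 came from leaving out KO RA replicate 3. In KO RA against KO NO it was 0 without KO NO replicate 2 or 3, 1 without KO NO replicate 1 and 5 without KO RA replicate 3.

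A replicate block gave 0, 0, 0, 2 and 0 calls, as without it. Same-numbered libraries of different groups had correlations of -0.238 to 0.0957 in their deviations from the group means, none over 0.1 in 18 pairs, so the numbers were not taken as pairs. Without KO RA replicate 3 the median standard error in KO NO against WT NO over all genes fell from 0.43 to 0.27. Low members such as Fgf1, Fgf9, Fgf12 and Fgfr4 rest on few counts in some groups, and differences in them were often not detectable at this depth.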
